A study of Mus musculus with 8 samples.

Results

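Megakaryocyte and platelet genes were followed through 8 mouse leukaemias. They are 10 genes, taken by symbol from the deposited tables: Itga2b, Itgb3, Gp1bb, Gp9, Gp5, Treml1, Pf4, Ppbp, Vwf and Tubb1. All 10 had a row among the 18860 genes measured, and all 10 were among the 14679 genes that passed the filter on low values. Total RNA was sequenced from leukaemia cells of the bone marrow of moribund C57BL/6 mice, labelled acute myeloid cells, with 4 lines per genotype. The 11B3-deleted group (11B3fl/p53fl, shNf1, shMll3, Vav1-Cre; n = 4 libraries) carried a floxed 11B3 interval, the part of chromosome 11 that contains Trp53, on 1 homologue and a floxed Trp53 allele on the other. The p53-loss-only group (p53fl/fl, shNf1, shMll3, Vav1-Cre; n = 4 libraries) carried the floxed Trp53 allele on both homologues and kept the rest of the interval. Both groups therefore carried the short hairpins against the Ras regulator Nf1 and the histone methyltransferase Mll3, and the recombinase Vav1-Cre, which acts throughout the blood system. The labels give neither the age of the mice nor the number of animals behind the lines, so a p-value here speaks only of variation among the libraries, which may be technical.

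Megakaryocytes are the large marrow cells that shed platelets, and they arise from progenitors that can also give red cells. Their surface carries the integrin of Itga2b and Itgb3, which binds fibrinogen, and the GPIb-IX-V complex, which binds von Willebrand factor; their granules store chemokines and clotting proteins. The transcription factor Gata1 drives both the erythroid and the megakaryocyte programme and is used here as the erythroid level.

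Values are the deposited ones, read counts divided by a size factor of the library plus 1. The libraries held 30591456 to 35719495 reads in 11B3-deleted and 30502718 to 33365364 in p53-loss-only libraries, and 3 reads correspond to values of 3.66 to 4.29. The myeloid label was met by neutrophil granule genes, with Mpo at 86051 to 414041 in the 11B3-deleted libraries and at 75329 to 195095 in the p53-loss-only libraries. By summed levels of other lineages, a pair of libraries stood apart. The summed level of 5 B lineage genes was 32197 in 11B3-deleted replicate 3 and 163 to 1804 in the other 7 libraries. That of 30 erythroid genes was 278182 in 11B3-deleted replicate 1 and 12898 to 85104 in the other 7. Car1 (118944) and Car2 (43867) gave much of the sum in that replicate. By the median over the 30 genes of the log2 value minus the gene's mean, p53-loss-only replicate 2 (1.68) was above 11B3-deleted replicate 1 (1.48). Bulk RNA cannot tell fewer cells of a type from less RNA per cell.

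RefSeq promoter windows of build GRCm38.p6, which run from 250 bases before to 50 bases after a gene's start, were matched by symbol for 8 of the 10 genes. They were searched on both strands for GATA letters (the word AGATAA, the word AGATAG, the word TGATAA or the word TGATAG) and ETS letters (the word AGGAAG or the word CGGAAG), the short words bound by the GATA and ETS families of transcription factors. No GATA word overlapped an ETS word in these windows. GATA letters were in 3 of the 8 windows (Pf4, Gp1bb and Gp5), where 30.2% of 27025 gene windows hold them, and ETS letters were in 6 of the 8, where 46.4% of gene windows do. 4 windows are shown: those of Gp5 and Tubb1, whose levels ran closest to Gata1, and those of Gp9 and Ppbp, the pair of members whose levels ran closest to each other. Capitals mark the GATA and ETS words. The windows are chr16:30310732-30311031, minus strand (Gp5), chr2:174450345-174450644, plus strand (Tubb1), chr6:87777820-87778119, plus strand (Gp9) and chr5:90768268-90768567, plus strand (Ppbp), each printed 5′ to 3′ in the direction of the gene.
Gp5: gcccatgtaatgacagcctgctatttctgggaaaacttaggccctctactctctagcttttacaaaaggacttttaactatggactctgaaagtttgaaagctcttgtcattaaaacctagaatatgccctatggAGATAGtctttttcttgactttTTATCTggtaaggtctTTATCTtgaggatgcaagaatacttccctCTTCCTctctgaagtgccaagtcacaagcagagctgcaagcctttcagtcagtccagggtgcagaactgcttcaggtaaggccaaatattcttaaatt
Tubb1: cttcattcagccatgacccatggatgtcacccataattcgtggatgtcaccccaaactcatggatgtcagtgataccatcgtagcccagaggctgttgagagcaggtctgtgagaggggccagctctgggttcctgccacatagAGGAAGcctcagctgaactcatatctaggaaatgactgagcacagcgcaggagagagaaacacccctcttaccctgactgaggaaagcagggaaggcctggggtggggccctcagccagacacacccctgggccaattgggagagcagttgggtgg
Gp9: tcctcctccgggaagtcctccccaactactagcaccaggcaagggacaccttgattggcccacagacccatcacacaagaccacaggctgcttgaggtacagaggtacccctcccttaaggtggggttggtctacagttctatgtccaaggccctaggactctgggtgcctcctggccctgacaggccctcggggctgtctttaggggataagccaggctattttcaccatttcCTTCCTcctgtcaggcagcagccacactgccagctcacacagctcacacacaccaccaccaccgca
Ppbp: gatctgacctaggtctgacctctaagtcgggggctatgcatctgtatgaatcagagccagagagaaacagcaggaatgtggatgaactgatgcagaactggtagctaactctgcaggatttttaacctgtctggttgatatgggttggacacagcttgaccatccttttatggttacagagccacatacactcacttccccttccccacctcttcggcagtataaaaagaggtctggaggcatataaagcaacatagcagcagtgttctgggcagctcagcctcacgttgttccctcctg
Gp5 held 3 GATA words, beginning 115, 93 and 77 bases before the start, and an ETS word 48 bases before it. Tubb1 held an ETS word 106 bases before the start and no GATA word. Gp9 held an ETS word 16 bases before the start, and Ppbp held neither word. A match is a run of letters and not a shown binding site.

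The members were not placed together in the genome. By the GENCODE annotation of GRCm38, Pf4 and Ppbp lie on chromosome 5 with starts 3917 bases apart in the RefSeq windows, Gp5 and Gp1bb lie far apart on chromosome 16, and Gp9 and Vwf are on chromosome 6. Itga2b and Itgb3 are on chromosome 11, the chromosome that carries the engineered deletion, but 32.2 and 34.4 megabases beyond the 11B3 interval, taken as Sco1 to Alox12 in the gene order. None of the 10 members lies inside the interval.

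The fibrinogen receptor genes varied strongly within each genotype. Itga2b, its alpha chain, had values of 439, 423, 118 and 1592 in 11B3-deleted replicates 1 to 4 and 309.8, 1159, 142 and 151 in p53-loss-only replicates 1 to 4. Each genotype had a library above 1000 and a library under 150, so the groups overlapped throughout. Itgb3, its beta chain, had values of 728, 2249, 693 and 2181 in the 11B3-deleted replicates and 2184, 1308, 1195 and 188 in the p53-loss-only replicates. Itgb3 was lowest in p53-loss-only replicate 4 and was highest, at close values, in 11B3-deleted replicates 2 and 4 and p53-loss-only replicate 1. Per kilobase of exon, Itgb3 exceeded Itga2b in every library, by 1.27 to 5.45 times in 11B3-deleted and by 1.04 to 7.80 times in p53-loss-only libraries. The chains therefore did not keep a fixed ratio of RNA. Itgb3 is also part of the vitronectin receptor of other cells, including osteoclasts.

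In the von Willebrand factor receptor, Gp5 varied more than any other member. Gp5, the GPV subunit, had values of 341, 7.46, 112 and 347 in the 11B3-deleted replicates and 63.1, 858, 15.3 and 13.8 in the p53-loss-only replicates. Its highest library, p53-loss-only replicate 2, stood 115 times above its lowest, 11B3-deleted replicate 2, which held 6 reads. Gp9, the GPIX subunit, had values of 11.7, 8.53, 4.88 and 35.6 in the 11B3-deleted replicates and 8.77, 11.1, 7.58 and 15.9 in the p53-loss-only replicates, so 11B3-deleted replicate 4 was well above the rest. Gp9 rested on 4 to 39 reads a library. Gp1bb, the GPIb beta chain, had values of 16.6, 23.6, 2.94 and 37.4 in the 11B3-deleted replicates and 31.1, 29.4, 14.2 and 2.06 in the p53-loss-only replicates. Each genotype had a library of very few Gp1bb reads, with 2 in 11B3-deleted replicate 3 and 1 in p53-loss-only replicate 4. In the GENCODE annotation 92.9% of the exon bases of Gp1bb are also exon of Sept5 or Gm49601, so how reads were shared there is uncertain; no other member shares exon bases. The GPIb alpha chain gene Gp1ba, which was not a member and was added after its values were seen, was steadier, at 154 to 591 in the 11B3-deleted libraries and 188 to 447 in the p53-loss-only libraries.

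The subunits of that complex did not move as a block. Gp5 per kilobase was 0.344 to 12.7 times Gp9 in the 11B3-deleted libraries and 0.344 to 34.0 times Gp9 in the p53-loss-only libraries. Treml1, a receptor of the granule membrane that reaches the platelet surface on activation, had values of 85.9, 190.4, 29.1 and 78.2 in the 11B3-deleted replicates and 226, 177, 339.8 and 84.1 in the p53-loss-only replicates. It was the member with the lowest levels in the 11B3-deleted group relative to the p53-loss-only group, yet 11B3-deleted replicate 2 lay above p53-loss-only replicates 2 and 4.

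The granule chemokines were detected in every library. Pf4, platelet factor 4, had values of 65.4, 205, 23.3 and 152 in the 11B3-deleted replicates and 54.4, 51.5, 48.2 and 48.9 in the p53-loss-only replicates. The p53-loss-only libraries were nearly level, while the 11B3-deleted libraries lay on both sides of them. Ppbp, the platelet basic protein, had values of 69.3, 39.7, 17.5 and 148 in the 11B3-deleted replicates and 40.8, 30.4, 16.4 and 77.7 in the p53-loss-only replicates. The lowest library of each genotype was replicate 3 and the highest replicate 4, numbers that carry no pairing. Although Pf4 and Ppbp are neighbours, Ppbp per kilobase was 0.126 to 0.706 times Pf4 in the 11B3-deleted libraries and 0.217 to 1.07 times Pf4 in the p53-loss-only libraries.

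Vwf, the clotting protein von Willebrand factor, which endothelium also makes, was the steadiest member, at 99.6, 221, 69.8 and 302 in the 11B3-deleted replicates and 103, 159, 213 and 236 in the p53-loss-only replicates. Its highest and lowest libraries were both 11B3-deleted and differed 4.32 times. Endothelial markers were detected beside it, with a summed level over 16 genes of 769 to 1329 in the 11B3-deleted libraries and 342 to 1323 in the p53-loss-only libraries; none of the 16 was at 0 throughout, and their part in the Vwf values was not tested. Tubb1, the beta tubulin of the platelet microtubule ring, had values of 44.9, 12.8, 12.6 and 44.5 in the 11B3-deleted replicates and 30.1, 23.9, 7.58 and 6.32 in the p53-loss-only replicates. The 11B3-deleted libraries formed a high pair and a low pair, with the p53-loss-only values reaching from below the low pair to between them.

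**Figure D1:**
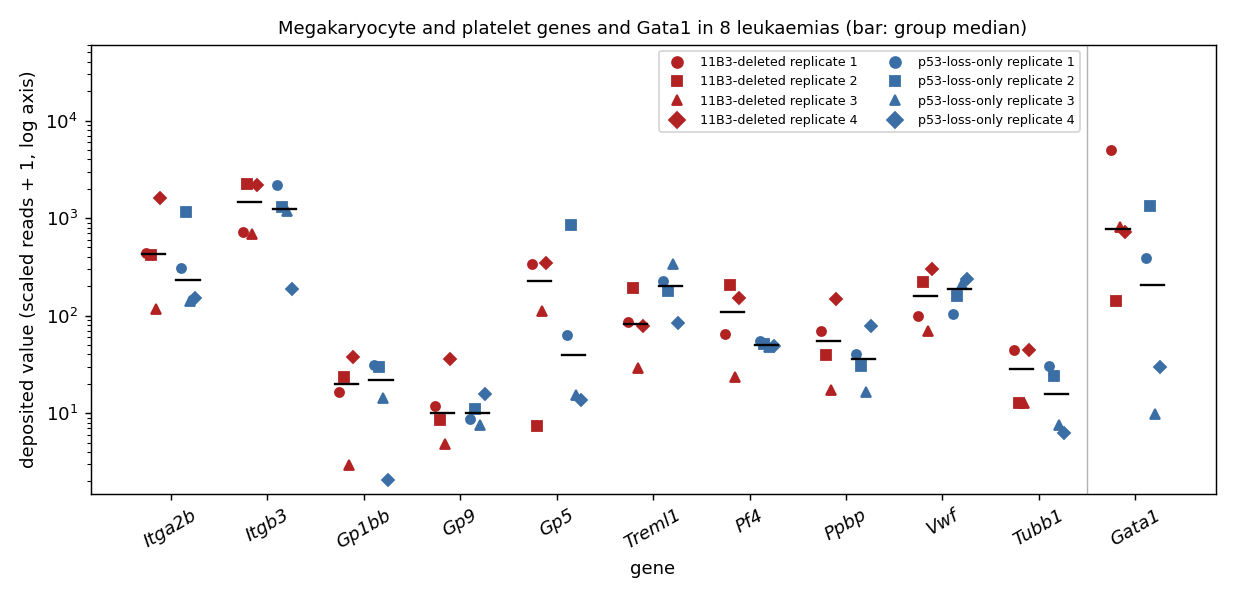
Deposited values (scaled reads + 1, log axis) of the 10 megakaryocyte and platelet genes and Gata1 in each library, with 11B3-deleted libraries in red on the left of each gene, p53-loss-only libraries in blue on the right, and a bar at the group median. The groups overlap for every gene, and Gp5 and Gata1 spread the widest.

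Set per kilobase of exon, so that genes can be compared, Itgb3 led with a mean of 227 scaled reads per kilobase (range over the 8 libraries 31.8 to 381). Pf4 (111), Treml1 (107), Gp5 (99.6) and Itga2b (99.2) followed at nearly equal means per kilobase, near the middle of all genes. In this group the order changed from library to library: Pf4 exceeded Treml1 in 5 of 8 libraries, Treml1 exceeded Gp5 in 4 of 8, and Gp5 exceeded Itga2b in 3 of 8. Ppbp came next at a mean of 49.9 per kilobase and exceeded Tubb1 (15.5) in 8 of 8 libraries, the only step of the order that held in every library. Below it Gp9 (13.6), Vwf (10.9) and Gp1bb (8.94) were not separated from their neighbours in every library. Gata1 had a mean of 434 per kilobase, with a range of 3.60 to 2068. Of the 17888 genes with a length, 64% had a lower mean per kilobase than Itgb3 and 25.1% a lower one than Gp1bb. The level and place of Gp1bb are uncertain, since 92.9% of its exon bases are also exon of other genes.

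The spread between leukaemias was larger for these genes than for most, though smaller than for the erythroid, the eosinophil, basophil and mast cell, and the B lineage lists. On the log2 scale the standard deviation over the 8 libraries was 0.74 for Vwf, the smallest, and 2.53 for Gp5, the largest, with a median of 1.11 over the 10 members against 0.44 over all genes tested. The same median was 1.67 over the erythroid genes, 1.68 over the eosinophil, basophil and mast cell genes and 2.57 over the B lineage genes. It was 1.08 over the stem and progenitor genes, 0.93 over osteoclast, 0.85 over neutrophil, 0.83 over monocyte and macrophage and 0.81 over endothelial genes. For Vwf 75% of the tested genes had a smaller standard deviation, for Gp5 99%. The genes compared were not matched for level, and counting noise widens the spread of genes with few reads. Gp1bb, Gp9 and Tubb1 had 49 or fewer reads a library. Both the library highest for the most members and the library lowest for the most members were 11B3-deleted. 11B3-deleted replicate 4 had the highest value of 5 members (Itga2b, Gp1bb, Gp9, Ppbp and Vwf) and was among the top 2 libraries for 8. Its median log2 value minus the gene's mean was also the highest for eosinophil, basophil and mast cell genes (1.34). The same held for neutrophil (0.68) and stem and progenitor genes (0.48). It did not hold for erythroid, endothelial, monocyte and macrophage, osteoclast or B lineage genes. 11B3-deleted replicate 3, the library with the high B lineage genes, had the lowest value of 5 members (Itga2b, Gp9, Treml1, Pf4 and Vwf) and was among the bottom 2 for 8. Reads of the 10 members summed to 154.8 CPM, counts scaled to a common library size, in 11B3-deleted replicate 4 and to 36.1 CPM in 11B3-deleted replicate 3, with 58.8 and 102 CPM in 11B3-deleted replicates 1 and 2. The p53-loss-only libraries ran from 25.1 CPM in replicate 4, the lowest of the 8, to 128 CPM in replicate 2. Itgb3 alone made up 23.0% to 71.8% of these reads. Without Itgb3 the sums ran from 12.8 CPM in 11B3-deleted replicate 3 to 86.1 CPM in 11B3-deleted replicate 4. Also without it, p53-loss-only replicates 2 and 4 had 84.0 and 19.3 CPM. The part of the B lineage cells in the low values of 11B3-deleted replicate 3 was not tested.

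**Figure D2:**
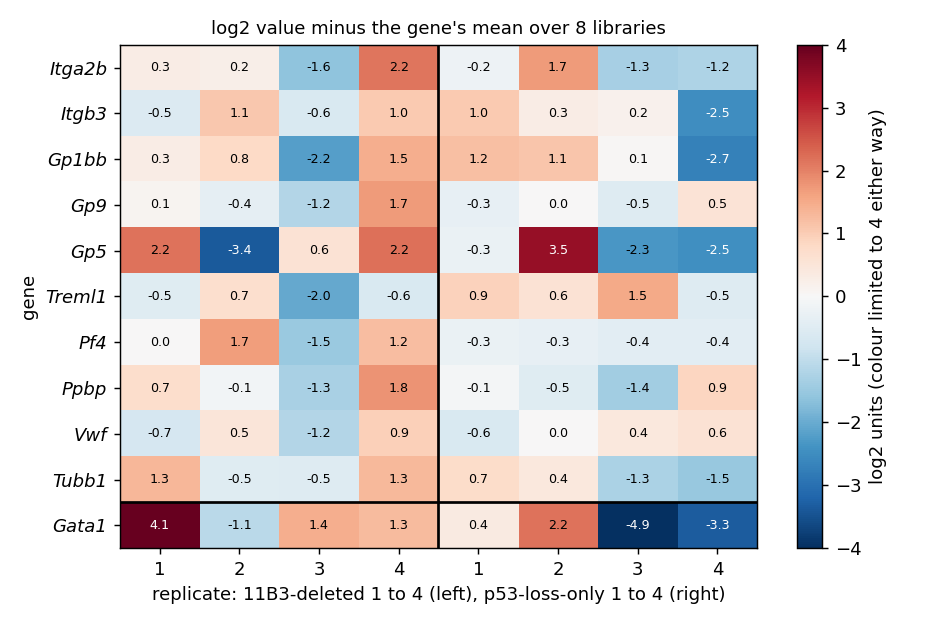
Log2 value of each member and of Gata1 in each library minus the gene's mean over the 8 libraries, with 11B3-deleted replicates 1 to 4 left of the line and p53-loss-only replicates 1 to 4 right of it. 11B3-deleted replicate 4 is high and 11B3-deleted replicate 3 low for most members, while Gata1 is highest in 11B3-deleted replicate 1.

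The comparison of genotypes asks whether losing the interval together with Trp53 goes with another level of these genes than losing Trp53 alone. No member passed. With limma on the log2 values and Benjamini-Hochberg adjustment over all 14679 genes, 0 of 10 members were called (adjusted p = 0.996 for each), against 0.0136% of all genes. Likewise 0 members had an unadjusted limma p under 0.05, where 3.56% of all genes did, and 0 had groups that did not overlap, where 2.15% of all genes did. edgeR and DESeq2 on the recovered reads also called 0 members, against 0.00681% and 0.395% of all genes; DESeq2 gave no adjusted p for Gp1bb, Gp9 and Tubb1. The log2 mean was higher in the 11B3-deleted group for 8 members and lower for 2, where 51.6% of all genes tested were higher, and the median log2 difference was 0.52 over the members and 0.01 over all genes.

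The intervals were wide, so sizeable differences in either direction were not detectable with 4 libraries a group. Treml1 came closest, with means of 95.9 ± 67.8 in 11B3-deleted and 207 ± 106 in p53-loss-only libraries (SD, n = 4 each). Its log2 difference was -1.24 (SE 0.62), with a 95% interval from -2.64 to 0.16. Treml1 had an unadjusted limma p under 0.05 when 11B3-deleted replicate 2 or p53-loss-only replicate 4 was left out, as did 1150 of 14454 genes in the first of these fits and 526 of 14501 in the other. Tubb1 averaged 28.7 ± 18.5 in 11B3-deleted and 17.0 ± 11.9 in p53-loss-only libraries (SD, n = 4 each), and its log2 difference of 0.81 (SE 0.70) had a 95% interval from -0.78 to 2.39. Pf4 averaged 112 ± 82.4 in 11B3-deleted and 50.7 ± 2.83 in p53-loss-only libraries (SD, n = 4 each), and its log2 difference of 0.71 (SE 0.64) had a 95% interval from -0.72 to 2.15. Without 11B3-deleted replicate 3, the library with the high B lineage genes, Pf4 had a log2 difference of 1.32 and an unadjusted limma p under 0.05, as did 412 of 14475 genes, and no member was called. For Itga2b the log2 difference was 0.54 (SE 0.87), for Itgb3 0.49 (SE 0.75), for Ppbp 0.55 (SE 0.71), and for Vwf -0.21 (SE 0.51). Gp1bb (0.17, SE 1.04) and Gp9 (0.14, SE 0.62) lay near 0. Gp5 had a log2 difference of 0.78 (SE 1.57) and the widest interval of the members, -2.78 to 4.34, but its mean was 202 ± 169 in 11B3-deleted and 238 ± 414 in p53-loss-only libraries (SD, n = 4 each), so mean and log2 difference differed in sign. Gp5 had a log2 difference of -0.25 with edgeR, and of 2.08 in the limma test without p53-loss-only replicate 2, its highest library. Leaving out 1 library turned the direction for 5 members: Gp1bb (-0.71) and Itgb3 (-0.26) without p53-loss-only replicate 4, Itga2b (-0.082) without 11B3-deleted replicate 4, Vwf (0.15) without 11B3-deleted replicate 3 and Gp9 (-0.010) without p53-loss-only replicate 3. Gp1bb also turned without 11B3-deleted replicate 2 (-0.066) or 4 (-0.29).

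**Figure D3:**
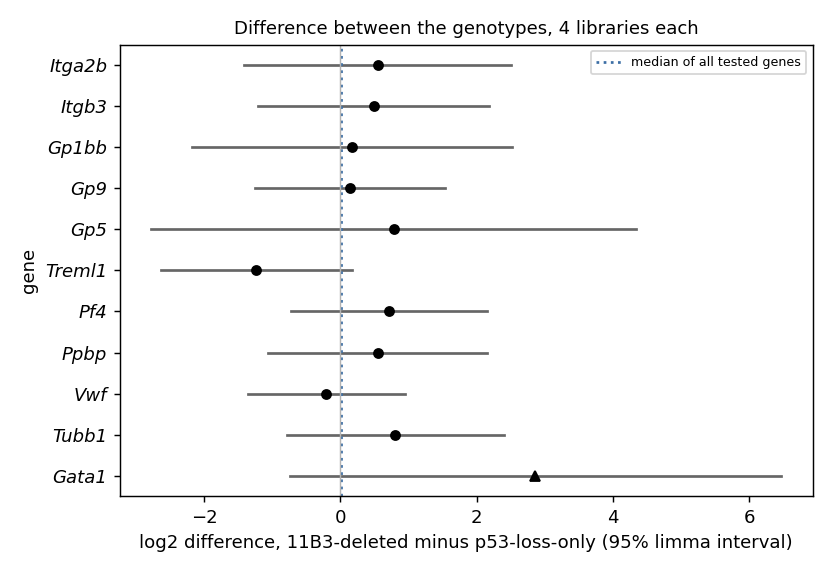
Log2 difference, 11B3-deleted minus p53-loss-only, with its 95% limma interval for each member and for Gata1 (4 libraries a group); the dotted line is the median of all tested genes. Every interval includes 0, and that of Treml1 reaches only to 0.16.

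Gata1, the erythroid level, had a standard deviation of 2.97 over the 8 libraries on the log2 scale, above that of every member. It had values of 5044, 142, 812 and 718 in 11B3-deleted replicates 1 to 4 and 386, 1333, 9.77 and 29.8 in p53-loss-only replicates 1 to 4. It was nearly absent in p53-loss-only replicates 3 and 4, with 8 and 27 reads, and the groups overlapped (log2 difference 2.86 with SE 1.59 and a 95% interval from -0.74 to 6.47; adjusted p = 0.996 with limma). All 30 measured erythroid genes had a positive Pearson's r with Gata1, from 0.23 to 0.99 with a median of 0.91, and 9 of them passed the exact permutation test after adjustment. Of the members 8 of 10 had a positive r, with a median of 0.25, where 50.6% of all genes had a positive r.

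Against Gata1 over the 8 libraries, 0 of 10 members passed an exact permutation test of r adjusted over 14678 genes, where 0.334% of all genes passed with a positive r, and 0 passed by Spearman's rho, where 0.102% did. At an unadjusted exact p under 0.05 there were 2 members with a positive r (Gp5 and Tubb1), against 5.28% of all genes with a positive r, and 1 with a positive rho (Gp5), against 5.76% of all genes with a positive rho. Tubb1 had the highest r, 0.84 (exact permutation p = 0.00898, adjusted p = 0.367), with Spearman's rho 0.71 (exact permutation p = 0.0576, adjusted p = 0.477). Gp5 had r = 0.82 (exact permutation p = 0.0129, adjusted p = 0.415) and rho 0.79 (exact permutation p = 0.0279, adjusted p = 0.396). Without p53-loss-only replicates 3 and 4, the libraries farthest from the median of Gata1, r was 0.80 for Gp5 (exact permutation p = 0.0611) and 0.59 for Tubb1 (exact permutation p = 0.200). Without 11B3-deleted replicate 1, the library of highest Gata1 and highest summed erythroid level, r was 0.80 for Gp5 and 0.78 for Tubb1. Without that library no member passed after adjustment, and no member was called between the genotypes. Itga2b, a gene of early progenitors as well as megakaryocytes, had r = 0.54 (exact permutation p = 0.167, adjusted p = 0.670) and rho 0.48 (exact permutation p = 0.243, adjusted p = 0.657), and r = 0.12 without the same libraries (exact permutation p = 0.876).

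On the other side, Vwf had r = -0.52 (exact permutation p = 0.188, adjusted p = 0.680; rho -0.55, p = 0.171) and Treml1 had r = -0.45 (exact permutation p = 0.262, adjusted p = 0.724; rho -0.45, p = 0.267). Treml1 was highest in p53-loss-only replicate 3, the library with the least Gata1, and Vwf was above its median there. For Pf4, Itgb3, Gp1bb, Gp9 and Ppbp r lay between 0.02 and 0.32, with exact permutation p from 0.448 to 0.970. r turned negative without p53-loss-only replicates 3 and 4 for Pf4 (-0.43), Itgb3 (-0.73) and Gp1bb (-0.15). Within a genotype there are 4 libraries, too few for a correlation. In the 11B3-deleted group replicate 1 had the highest Gata1 (5044), with Gp5 at 341, Tubb1 at 44.9, and Itga2b and Itgb3 well below those of replicate 4. But 11B3-deleted replicate 4, with Gata1 at 718, had nearly the same Gp5 (347) and Tubb1 (44.5). Replicate 3 of that group, with Gata1 at 812, had lower Gp5 (112) and Tubb1 (12.6). In p53-loss-only replicate 2, Gata1, Gp5 and Itga2b were each the highest of the group.

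**Figure D4:**
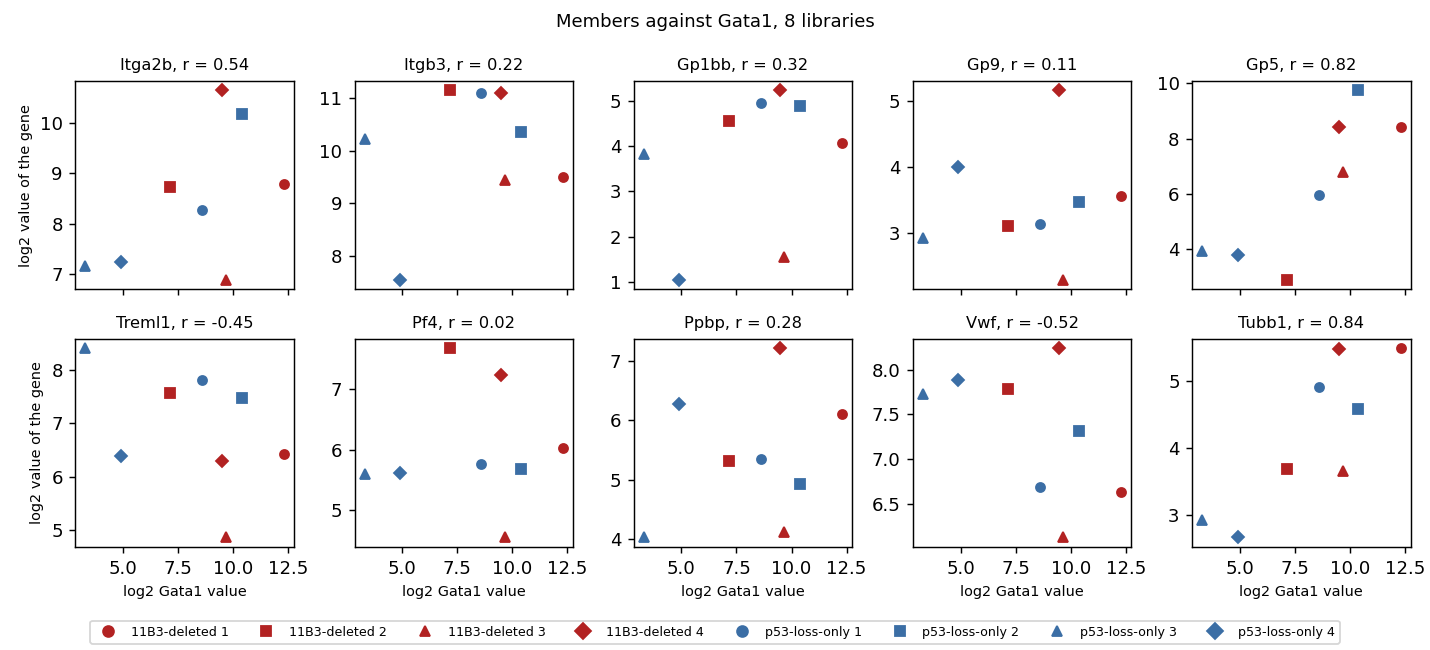
Log2 value of each member against the log2 value of Gata1 in the 8 libraries, with Pearson's r above each panel; 11B3-deleted libraries are red and p53-loss-only libraries blue. Gp5 (0.82) and Tubb1 (0.84) climb with Gata1, Vwf (-0.52) and Treml1 (-0.45) slope the other way, Itga2b (0.54) lies between, and r of the other 5 is 0.02 to 0.32.

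Other genes of the lineage were taken from lists. Of 16 tested further platelet receptors, 0 passed with limma over all genes, 9 had a higher and 7 a lower log2 mean in the 11B3-deleted group, and the median log2 difference was 0.10. Clec1b, the podoplanin receptor CLEC-2, was the only one without overlap, at 143, 197, 124 and 194 in the 11B3-deleted replicates and 353, 269.8, 373 and 263 in the p53-loss-only replicates. Its log2 difference was -0.95 (SE 0.27, 95% interval -1.56 to -0.33; limma adjusted p = 0.996), and 2.15% of all genes likewise had no overlap. Gp6, the collagen receptor of mature platelets, was close to absent, with 0 to 4 reads a library, and was not tested. Of 14 tested further granule genes 9 were higher and 5 lower (median log2 difference 0.11), with the adhesion receptor P-selectin (Selp) at 5271 ± 3087 in 11B3-deleted and 15969 ± 14308 in p53-loss-only libraries (SD, n = 4 each; log2 difference -1.34, SE 0.65, limma adjusted p = 0.996). Serpine2, a protease inhibitor of the same list with a smaller p, went the other way, at 1341 ± 1071 in 11B3-deleted and 505 ± 388 in p53-loss-only libraries (SD, n = 4 each), with a log2 difference of 1.53 and an SE of 0.70 (adjusted p = 0.996 by limma). Among the platelet signalling genes is Alox12, which lies inside the 11B3 interval. The platelet signalling genes (5 higher and 7 lower of 12) and cytoskeleton genes (4 higher and 8 lower of 12) had median log2 differences of -0.06 and -0.09. None of these genes passed with limma.

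Of 15 transcription factors of the lineage, 6 were higher and 9 lower (median log2 difference 0.00), and none passed. Gata2, which acts before Gata1 in the lineage, was at 310.5, 1599, 367 and 1460 in the 11B3-deleted replicates and 1967, 2763, 1409 and 1314 in the p53-loss-only replicates, so that its log2 difference was -1.31 with an SE of 0.57 (adjusted p = 0.996 by limma). Among the 11B3-deleted libraries Gata2 and Itgb3 were both high in replicates 2 and 4 and low in replicates 1 and 3. The p53-loss-only libraries did not repeat this, with Gata2 highest in replicate 2 and Itgb3 (2184) in replicate 1. At Gata2 of 1409 and 1314 in p53-loss-only replicates 3 and 4, Itgb3 was 1195 and 188. A relation of Gata2 to Itgb3 was not tested. Tal1, a partner of the GATA factors, was at 2215 ± 2198 in 11B3-deleted and 786 ± 1097 in p53-loss-only libraries (SD, n = 4 each; log2 difference 2.49, SE 1.23, limma adjusted p = 0.996).

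**Figure D5:**
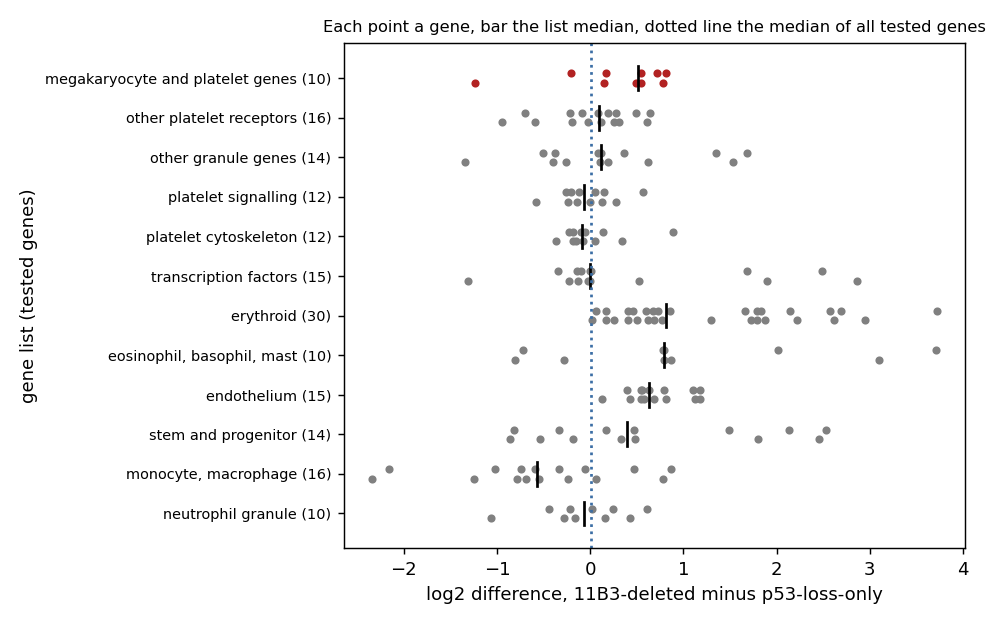
Log2 difference, 11B3-deleted minus p53-loss-only, of each tested gene by list, with a bar at the list median and a dotted line at the median of all tested genes. The members have a median of 0.52, the erythroid genes 0.81 and the monocyte and macrophage genes -0.58.

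Markers of other cell types that share some of these genes moved with the libraries too. All 30 erythroid and all 15 tested endothelial genes had a higher log2 mean in the 11B3-deleted group, with medians of 0.81 and 0.63, and none passed with limma over all genes. The summed erythroid level was 25192 to 278182 in the 11B3-deleted libraries and 12898 to 85104 in the p53-loss-only libraries. The 14 measured eosinophil, basophil and mast cell genes summed to 1698 to 6752 in the 11B3-deleted libraries and 826 to 2382 in the p53-loss-only libraries, and the 14 stem and progenitor genes to 12999 to 20360 in the 11B3-deleted and 12905 to 29105 in the p53-loss-only libraries. The stem cell factor Hlf was at 85.8 ± 62.8 in 11B3-deleted and 23.2 ± 18.6 in p53-loss-only libraries (SD, n = 4 each; log2 difference 1.80, SE 0.73, limma adjusted p = 0.996). The 8 measured osteoclast genes summed to 3203 to 5566 in the 11B3-deleted libraries and 4201 to 7831 in the p53-loss-only libraries. Of the tested genes, 7 of 10 eosinophil, basophil and mast cell genes (median log2 difference 0.80), 9 of 14 stem and progenitor genes (0.40) and 3 of 6 osteoclast genes (0.20) had a higher log2 mean in the 11B3-deleted libraries. Neutrophil genes were split (5 higher and 5 lower of 10, median -0.07), monocyte and macrophage genes were mostly lower (4 higher and 12 lower of 16, median -0.58), and all 5 B lineage genes had a higher log2 mean (median 1.74), with none called. Of the 16 monocyte and macrophage genes, 5 had an unadjusted limma p under 0.05 (1 higher and 4 lower), where 3.56% of all genes did. In 3 of the 16 the groups did not overlap, where 2.15% of all genes had no overlap. What part these cells have in the member values was not tested.

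The members resembled each other only in part. Of the 45 pairs of members 37 had a positive r over the 8 libraries, with a median of 0.42, given as a description since the points share library and scaling. Gp9 and Ppbp were the closest pair (0.91), followed by Gp1bb and Itgb3 (0.88), and Gp5 and Treml1 were the farthest apart (-0.31). Against the mean standardised log2 profile of the 10 members, of which each member is itself a part, Itga2b had the highest r of the members (0.92) and Treml1 the lowest (0.33). Outside every list the 6 genes of highest r with that profile were Cacna2d2 (0.96), Adcy9 (0.94), Armcx1 (0.93), Isg20 (0.92), Mr1 (0.91) and Crim1 (0.88). Cacna2d2, a calcium channel subunit, was at 418 in 11B3-deleted replicate 4 and 21.4 in 11B3-deleted replicate 3, its highest and lowest libraries.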

How the data were processed

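The authors deposited 1 table per library with a signal value per gene. STAR, HTSeq and DESeq are named, with build mm9, by the submitters' processing notes; their roles and the handling of strand and shared reads are not given in the sources used. Subtracting 1 from a deposited signal leaves a multiple of the library's step, so whole reads were recovered for 100% of values (tolerance 0.02 reads). From those reads edgeR called 1 gene.

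The main test was limma (trend option) applied to log2 deposited values, whose built-in 1 served as pseudocount, so folds of low genes are understated. Genes at 10 or more in at least 4 libraries were tested (14679), two-sided, with Benjamini-Hochberg adjustment at 0.05. Correlations over the 8 libraries used all 40320 orders. With libraries left out, all orders of those kept were used, which are fewer, so p is coarser there. Groups came from the titles. Members and lists were chosen with earlier results of these data known, and the B lineage list was added after the values were seen. Named genes are the members, Gata1, from each other list up to 4 genes of smallest p, and the 6 most alike outside the lists; Mpo, Gp1ba and Gp6 were named after their values were seen, and 2 genes were taken out of the lists afterwards and are not reported here. Symbols and exon lengths came from GENCODE vM21 by Ensembl identifier (17888 of 18860 matched). Libraries all differed beyond counting noise (lowest chi-square, divided by its degrees of freedom, 86.8). The limma procedure was also run on simulated data, and no result given here rests on that run. DESeq2 1.42.0, edgeR 4.0.16 and limma 3.58.1 ran in R 4.3.3. Alternatives were the replicate number as a block, 2 other filters, edgeR, DESeq2, TMM factors, an added constant of 5, Spearman's rho and each library left out.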

Additional observations from a re-analysis of the deposited data

How the results depend on the processing

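No alternative called a member or a member's correlation with Gata1, although DESeq2 gave no adjusted p for Gp1bb, Gp9 and Tubb1. Over all genes, limma called 2; the count was 0 with the replicate number as a block, 1 with edgeR, 58 with DESeq2, 1 with an added constant of 5, and 0 to 1 when 1 library was left out. The replicate numbers share no source in the labels, and same-numbered libraries did not deviate together (correlations of -0.03, -0.217, -0.414 and -0.243), so the block is no pairing. Log2 differences changed sign for Gp5 with edgeR (-0.25) and DESeq2 (-0.24). With 1 library left out they ranged from -0.082 to 1.20 for Itga2b, -0.71 to 0.94 for Gp1bb, -0.010 to 0.55 for Gp9, -0.55 to 0.15 for Vwf and -0.26 to 0.91 for Itgb3; Pf4 (0.28 to 1.32), Gp5 (0.09 to 2.08), Ppbp (0.04 to 1.07), Tubb1 (0.44 to 1.19) and Treml1 (-1.66 to -0.76) kept their sign. Gp9 could not be tested in 4 of these fits, since it no longer met the filter. The correlation with Gata1 changed sign for Itgb3 as Spearman's rho (-0.071), and without p53-loss-only replicates 3 and 4 for Pf4 (-0.43), Gp1bb (-0.15) and Itgb3 (-0.73). With 1 library left out it ranged from -0.14 to 0.17 for Pf4, -0.076 to 0.27 for Gp9, -0.11 to 0.50 for Ppbp and -0.31 to 0.39 for Itgb3, and from 0.78 to 0.89 for Gp5 and 0.78 to 0.91 for Tubb1. The cause of these changes was not tested. Gp9, Gp1bb and Tubb1 rest on 49 or fewer reads a library, which limits their precision.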
